A study of Mus musculus with 15 samples.

Results

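The genes described here are those whose messenger RNA moved to the same side with each of 3 different stimuli in microglia that had been differentiated in culture from mouse embryonic stem cells. A gene was taken when its values in all 9 stimulated libraries lay above, or all lay below, its values in all 6 untreated libraries. Of 11138 genes tested, 328 met this rule, 161 of them higher and 167 lower after stimulation. The values are the authors' normalized read counts, that is, reads per gene divided by a factor for each library. Cells labelled ESdM, derived from C57BL/6-ATCC embryonic stem cells and kept in N2 medium, made up all 15 libraries. There were 6 libraries of untreated cells and 3 each of cells given LPS+IFNg (lipopolysaccharide, 500 ng/ml, with interferon gamma, 20 ng/ml), IL4 (interleukin 4, 100 U/ml) or TGFb (transforming growth factor beta, 50 ng/ml). Stimulation lasted 24 h. No label states that replicates were grown as separate cultures. The p-values therefore measure a spread among libraries that may be technical only. The cells are a culture model and were not taken from brain, and any difference in handling between untreated and stimulated libraries cannot be told apart from stimulation.

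Microglia are the resident macrophages of the brain, and they take on different states according to the signals they meet. LPS acts through a Toll-like receptor and the transcription factor NF-kB, and interferon gamma through JAK kinases. IL4 acts through STAT6 and is the classical signal for alternative activation, and TGFb acts through SMAD proteins and is known to sustain the resting identity of microglia. Copying of DNA before cell division uses a set of genes that E2F transcription factors switch on together at the start of S phase, and the response to interferons uses a complex holding STAT2 and IRF9 that binds an element called ISRE.

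The library facts that bear on the comparison are these. Reads recovered from the deposited values summed to between 2682564 and 18676181 per library, and the untreated group held both the shallowest and the deepest library. The summed normalized values were 7296586 to 7516564 in untreated libraries and 7736554 to 8568417 in stimulated ones, so they did not overlap. LPS+IFNg replicate 3 stood apart from the other libraries of its group, and counts without it are given beside the lists that lead the results. Of 18 names in a panel of microglia and macrophage markers 14 were in the table, and their summed value was 26434 to 28467 in untreated libraries, 28736 to 34755 with LPS+IFNg, 32469.5 to 33351 with IL4 and 36710.2 to 38832 with TGFb. Those sums were higher in each of the 9 stimulated libraries. As a share of all summed values they were 0.362% to 0.379% untreated, 0.366% to 0.406% with LPS+IFNg, 0.420% to 0.428% with IL4 and 0.473% to 0.490% with TGFb, so that on this scale LPS+IFNg overlapped with untreated. Of the 14, Emr1 and Fcer1g are among the 328 genes. None of the neuron, fibroblast and lymphocyte markers was in the table. Of 7 astrocyte markers Aldh1l1 and Slc1a2 were, with sums of 39.6 to 80.9 in untreated and 65.7 to 111 in stimulated libraries, which overlap, and Aldh1l1 is among the raised genes (19.6 to 38.3 untreated, 38.4 to 75.7 stimulated). The endothelial markers in the table, Pecam1 and Vwf, summed to 180 to 237 untreated, 113 to 127 with LPS+IFNg, 201 to 244 with IL4 and 695 to 802 with TGFb. Vim, the 1 neural progenitor marker in the table, stood at 28172 to 33646 untreated, 30167 to 46237 with LPS+IFNg, 48442 to 58369 with IL4 and 33222 to 36485 with TGFb. Klf2, of the stem cell panel, stood at 22.1 to 34.5 untreated, 68.9 to 205 with LPS+IFNg, 48.4 to 76.2 with IL4 and 18.2 to 25.6 with TGFb. S100a8, of the granulocyte panel, lay between 1 and 26.3 in all libraries, and 4 oligodendrocyte lineage markers summed to 172 to 242 untreated and 183 to 252 stimulated. The part of cell composition in the results was not tested, and in bulk RNA fewer cells of a type and less RNA per cell cannot be told apart.

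The 161 raised genes were 1.45% of the genes tested and the 167 lowered genes 1.5%, together 2.94%. Because the summed values differ between untreated and stimulated libraries, how many genes were raised and how many lowered moved with the scaling. With each library rescaled to the same total, 80 genes were raised and 477 lowered, so that 14.36% of them were raised in place of 49.09%. With quantile normalization 109 were raised and 316 lowered (25.65% raised). All 167 lowered genes were kept under the same total and 164 under quantile normalization, whereas 80 and 104 of the 161 raised genes were. Without LPS+IFNg replicate 3 there were 172 raised and 186 lowered genes, which include all 328, since leaving out a library can only add genes to such a count. The ranges were often close: 59 raised and 37 lowered genes kept a gap of at least 0.1 on the log2 scale.

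The same contrast, tested with limma as the mean of the 3 stimuli with equal weight minus untreated, called 2375 genes higher (21.3%) and 2155 lower (19.3%), or 40.7% of the genes at an adjusted p below 0.05. With each library rescaled to the same total 30.75% of these calls were higher in place of 52.43%, and 39.78% with quantile normalization. All 328 genes were among the calls, which is no further evidence because the same values chose them. A mean over stimuli can be carried by 1 of them. The rule on all 9 libraries sets aside genes whose values with any stimulus overlap the untreated values. Genes that meet it can still owe most of their mean to 1 stimulus. Parp14 did, with log2 differences of 6.55 for LPS+IFNg, 0.77 for IL4 and 0.64 for TGFb. Chemokine genes show how the mean and the single stimuli can differ. Of 11, 9 were called higher and 2 lower in the mean of the stimuli. None met the rule, where 2.94% of all genes did, and in so few genes nothing is read from that. With LPS+IFNg 10 were higher and 1 lower (29.5% and 29.4% of all genes). With IL4 2 were higher and 2 lower (9.89% and 7.33%), and with TGFb 1 was higher and 5 were lower (24.1% and 23.4%). Log2 differences below are stimulated minus untreated, taken after log2(value + 1), each followed by its standard error (SE), for n = 3 libraries per stimulus and n = 6 untreated.

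Among genes raised by all 3 stimuli, Rnf19b, which encodes a RING-type ubiquitin ligase (chromosome 4, 129058144 to 129084526), had the largest weakest difference, meaning the smallest of a gene's 3 differences, of those with a mean of at least 50. Its values were 275 to 292 in untreated libraries (median 282). They were 1200.2, 1166 and 2326 with LPS+IFNg, 901, 1004 and 932 with IL4 and 658, 634 and 657 with TGFb. Every stimulated library held more than 2 times the highest untreated value, and the 3 stimuli did not overlap with each other. The log2 differences were 2.38, 1.73 and 1.19 (SE 0.14 each), and they differed among the stimuli (limma F test, adjusted p = 1.29e-05).

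Emr1 (Adgre1 in current annotation, chromosome 17, 57358581 to 57483529), which encodes the macrophage marker F4/80, stood at 2814 to 3132 (median 3011) in untreated libraries. It stood at 6951, 6336 and 7515 with LPS+IFNg, at 5692, 5852 and 5509 with IL4 and at 5513, 5589.5 and 5561 with TGFb. The 9 stimulated values lay close together, with log2 differences of 1.21, 0.92 and 0.89 (SE 0.05 each), although the LPS+IFNg libraries were the highest and the stimuli differed (limma F test, adjusted p = 0.000104). Cd200r4, one of the most even raised genes and a member of the CD200 receptor family, stood at 115 to 165 untreated and at 184 to 271 in the stimulated libraries. CD200 receptor genes have close relatives, so the division of reads among them is uncertain.

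Of 17 checkpoint and co-stimulatory genes tested 4 met the rule, where 1.45% of all genes did so upward, and 14 were called higher and 0 lower in the mean of the stimuli, where 21.3% and 19.3% of all genes were. These counts were also 4 and 14 without LPS+IFNg replicate 3. By stimulus some of the 17 were lower: with LPS+IFNg 13 were higher and 3 lower (29.5% and 29.4% of all genes). With IL4 5 were higher and 3 lower (9.89% and 7.33%), and with TGFb 8 and 3 (24.1% and 23.4%). The median log2 differences were 1.37, 0.20 and 0.37. Cd274 (chromosome 19, 29362107 to 29388095), which encodes the T cell inhibitory ligand PD-L1, stood at 79.8 to 106 (median 85.8) in untreated libraries. It was 1575, 1498 and 4420.2 with LPS+IFNg, 194, 209 and 176 with IL4 and 168, 179 and 184 with TGFb. The IL4 and TGFb ranges overlapped, and both lay far below LPS+IFNg (log2 differences 4.58, 1.08 and 0.96, SE 0.23 each).

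Cd40, the receptor through which T cells activate macrophages, stood at 64.1 to 75.7 (median 67.6) untreated. It was 809.7, 793 and 2216 with LPS+IFNg, 154, 151 and 137 with IL4 and 125, 105 and 118 with TGFb. Cd83, a marker of activated antigen-presenting cells, had another order, with TGFb at 109, 107 and 118 and LPS+IFNg at 55, 56.7 and 391, against 14 to 26.4 untreated. Its IL4 values, 32.3, 33.9 and 26.9, lay just above the untreated range and gave a log2 difference of 0.66 (SE 0.42). Under the same total Cd83 lost its gap. Lgals9, a galectin, stood at 118 to 151 untreated and at 162 to 642 stimulated. LPS+IFNg replicate 3 was the highest library for Rnf19b and for these 4 genes. Without it the mean difference of the 3 stimuli was 1.66 in place of 1.77 for Rnf19b, 2.04 in place of 2.21 for Cd274, 1.78 in place of 1.95 for Cd40 and 1.54 in place of 1.85 for Cd83.

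**Figure D1:**
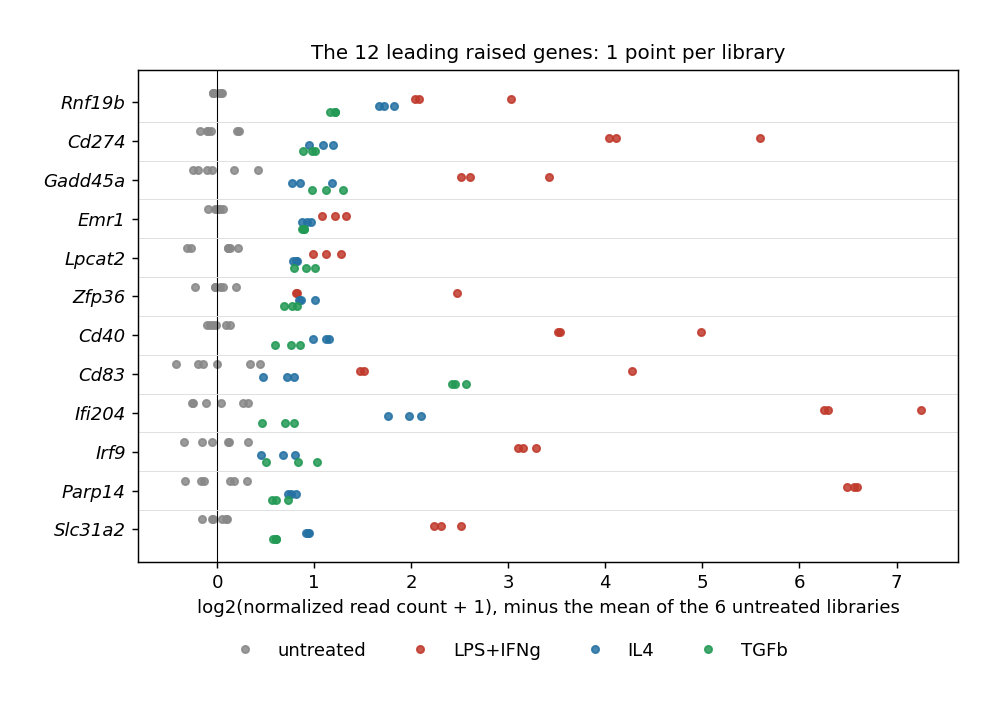
Points are the 15 libraries for the 12 raised genes with the largest weakest difference and a mean of at least 50; the horizontal axis is log2(normalized read count + 1) minus the mean of the 6 untreated libraries, and colours are the groups. Every stimulated point lies to the right of every untreated point of its gene, and the LPS+IFNg points of Parp14 and Ifi204 lie more than 6 units out while their TGFb points lie under 1.

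Immediate early genes had 2 of 26 members that met the rule, and MAP kinase phosphatases with ERK feedback genes 2 of 21, where 1.45% of all genes did so upward. Zfp36, which encodes tristetraprolin, a protein that marks cytokine messages for decay, stood at 219 to 292 (median 256) in untreated libraries. Its values were 452, 452 and 1425 with LPS+IFNg, 459.6, 515 and 468 with IL4 and 438, 455 and 412 with TGFb. Apart from LPS+IFNg replicate 3, the 8 stimulated libraries formed 1 narrow band, and the mean difference was 0.83 without that library in place of 1.01. A difference among the stimuli was not detected (limma F test, adjusted p = 0.116).

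Dusp1, a phosphatase that switches off MAP kinases, stood at 67.2 to 82.8 untreated and at 93.9 to 164 stimulated. Its log2 differences were 0.67, 0.70 and 0.55 (SE 0.14 each) for LPS+IFNg, IL4 and TGFb. Gadd45a, a growth arrest and DNA damage response gene, stood at 41.5 to 66.4 untreated. It was 287, 305 and 539.7 with LPS+IFNg, 84.9, 90.4 and 114 with IL4 and 109, 98.2 and 123 with TGFb. Lpcat2, an enzyme of platelet-activating factor synthesis, stood at 53.2 to 77.3 untreated and at 114 to 162 stimulated, with no detected difference among the stimuli (adjusted p = 0.128 by limma's F test). Slc31a2, a copper transporter, stood at 205 to 245 untreated, with 1070.3 to 1298, 428 to 439 and 339 to 348 for LPS+IFNg, IL4 and TGFb, 3 ranges that do not overlap.

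Of 30 tested genes of the JAK-STAT pathway and its feedback 4 met the rule upward (1.45% of all genes did), and 18 were called higher and 1 lower in the mean of the stimuli (21.3% and 19.3% of all genes). Without LPS+IFNg replicate 3, 4 met the rule and 19 were called higher. With LPS+IFNg 20 were higher and 4 lower (29.5% and 29.4% of all genes), with IL4 7 and 1 (9.89% and 7.33%) and with TGFb 14 and 3 (24.1% and 23.4%). Stat2, a transcription factor of the type I interferon response, stood at 153 to 173 untreated. It was 1798, 1855 and 1350.3 with LPS+IFNg, 241, 195 and 205 with IL4 and 232, 218 and 233 with TGFb. Tyk2, a JAK kinase, stood at 311 to 389 untreated, at 1104 to 1369.9 with LPS+IFNg, at 418 to 456 with IL4 and at 424 to 461 with TGFb, where the last 2 ranges overlap. Ptpn1, a phosphatase that acts on JAK kinases, was even across stimuli, with 918 to 1037 untreated and 1106 to 1289 in the 9 stimulated libraries (limma F test among stimuli, adjusted p = 0.238). Under the same total Ptpn1 no longer met the rule, and 2 of the 30 genes met it upward, where 80 of 11138 genes did. Among genes outside the naming rule, picked after their values were seen, the interferon receptor subunit Ifnar2 stood at 238 to 313 untreated and at 326 to 658 stimulated. Irf1, a transcription factor induced by interferon gamma, stood at 66 to 85.2 untreated, 6527 to 9914 with LPS+IFNg, 87.3 to 93.2 with IL4 and 87.5 to 103 with TGFb. Ifnar2 and Irf1 also lost their gap under the same total.

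Of 33 interferon-stimulated antiviral genes all 33 were called higher in the mean of the stimuli (21.3% of all genes were), and 4 met the rule upward (1.45%). Leaving out LPS+IFNg replicate 3 gave 33 and 4 as well. All 33 were called higher with LPS+IFNg (29.5% of all genes tested were), 8 were higher and 2 lower with IL4 (9.89% and 7.33% of all genes), and 7 were higher and 6 lower with TGFb (24.1% and 23.4%). Without IL4 replicate 2 the IL4 calls over all genes were 710 higher and 429 lower in place of 1101 and 816. The list's median log2 difference was 4.47 with LPS+IFNg, 0.06 with IL4 and 0.00 with TGFb.

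Parp14 (chromosome 16, 35831892 to 35871518), an ADP-ribosyltransferase, stood at 39.2 to 61.7 (median 50) untreated. It was 4875, 4776 and 4556 with LPS+IFNg, 83.1, 84.7 and 87.8 with IL4 and 76.1, 83.2 and 74.2 with TGFb. The differences were 6.55, 0.77 and 0.64 (SE 0.12 each), and the IL4 and TGFb ranges overlapped. Its neighbour in function Parp9 stood at 117 to 163 untreated and at 1277 to 1355, 167 to 199 and 185 to 226 with LPS+IFNg, IL4 and TGFb. Irf9 (chromosome 14, 55603985 to 55610030), the DNA-binding part of the ISRE complex, stood at 44.8 to 71.1 untreated. It was 511, 564 and 497 with LPS+IFNg, 99.8, 91.8 and 78.1 with IL4 and 102, 81.1 and 117 with TGFb. Oas1a, a sensor of double-stranded RNA, stood at 86.8 to 109 untreated, at 719.6 to 772 with LPS+IFNg and at 127 to 175 with IL4 or TGFb. Ifi204, a DNA sensor of a family with close copies, so that its reads are uncertain, stood at 11.2 to 17.3 untreated, at 1116, 1145 and 2229.9 with LPS+IFNg, at 61.6, 56.5 and 48.5 with IL4 and at 24.4, 19.2 and 22.8 with TGFb. In each of these genes the order was LPS+IFNg far above the other stimuli, and in Ifi204 IL4 also lay above TGFb without overlap. Ifi204 and Parp9 lost their gap under quantile normalization and Parp9 also under the same total.

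Of 30 lysosome genes 3 met the rule upward, where 1.45% of all genes did, and 19 were called higher and 2 lower in the mean of the stimuli, where 21.3% and 19.3% of all genes were. The list was mixed with LPS+IFNg, with 14 higher and 8 lower (29.5% and 29.4% of all genes). With IL4 18 were higher and 0 lower (9.89% and 7.33%), and with TGFb 19 and 3 (24.1% and 23.4%). Npc2, which moves cholesterol out of lysosomes, stood at 2256 to 2340.2 untreated, 4406 to 5208 with LPS+IFNg, 2877 to 3045 with IL4 and 3179.6 to 3383 with TGFb, 4 ranges without overlap. Lamp2, a lysosomal membrane protein, stood at 3568 to 4017 untreated and at 4069 to 5474 stimulated. Grn (progranulin) stood at 9167 to 9552 untreated and at 10019 to 15493 stimulated, with a log2 difference for IL4 of 0.12 (SE 0.08). Lamp2 lost its gap under the same total and under quantile normalization, and Grn under the latter.

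Of 33 glycolysis and hypoxia-response genes 3 met the rule upward and 1 downward, against 1.45% and 1.5% of all genes. P4ha1, a subunit of collagen prolyl hydroxylase, stood at 369.9 to 450.2 untreated and at 680.0 to 1086, 473 to 495 and 721 to 764 with LPS+IFNg, IL4 and TGFb. The glycolytic genes Aldoa (15952 to 17319 untreated, 17708 to 24207 stimulated) and Hk1 (1229.5 to 1337 untreated, 1354 to 1818 stimulated) moved little and lost their gap under both scalings. The log2 difference of Aldoa was -0.023 under quantile normalization in place of 0.25. Pdk1, a kinase that restrains pyruvate oxidation, was lower, at 861 to 949 untreated and 702 to 855 stimulated.

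Of 29 genes of oxidative stress defence and NRF2 targets 2 met the rule upward and 3 downward, and 10 were called higher and 10 lower in the mean of the stimuli. Of all genes 1.45% and 1.5% met the rule in these directions, and 21.3% and 19.3% were called. The stimuli went apart: with LPS+IFNg 16 were higher and 7 lower (29.5% and 29.4% of all genes). With IL4 3 were higher and 14 lower (9.89% and 7.33%), and with TGFb 7 and 17 (24.1% and 23.4%). Hmox1 (haem oxygenase 1) stood at 1921 to 2246 untreated and 2530.2 to 3508 stimulated. Its gap was lost under the same total and quantile normalization. The microsomal glutathione transferase gene Mgst1 stood at 893 to 1047 untreated and 1099.5 to 1688 stimulated. Catalase (Cat) was lower, at 4067 to 4789 untreated and 2859 to 3803 stimulated, and so was Pgd of the pentose phosphate pathway, at 4922 to 5655 and 3543 to 4769.

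The lowered genes were expressed at higher levels than genes at large and their differences were smaller (median over the 3 stimuli -0.37, against 0.51 for the raised genes). Their median untreated value was 910 normalized read counts, against 483 for the raised genes and 280.4 for all genes tested. Levels and differences were read from the values that the rule used. A small difference can meet the rule only where the libraries of each side lie close together. These numbers therefore describe the genes taken and are no further result. Of the 167, 140 had a weakest difference under 0.3 in size, 5 had at least 0.5 and 0 had at least 1. Of the 161 raised genes these numbers were 94, 22 and 3.

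Ptpn22 (chromosome 3, 103856575 to 103912252), which encodes a phosphatase that restrains immune receptor signalling, led the lowered genes. It stood at 207 to 290.1 (median 238) in untreated libraries. It was 35.6, 63.6 and 33.9 with LPS+IFNg, 164, 164 and 144 with IL4 and 52.2, 47 and 63.8 with TGFb. The IL4 libraries lay between the untreated libraries and the other 2 stimuli, whose ranges overlapped (log2 differences -2.48, -0.61 and -2.14, SE 0.16 each; limma F test among stimuli, adjusted p = 1.16e-07).

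Peg10, an imprinted gene derived from a retrotransposon, followed the same order, with 366 to 476 untreated, 123 to 191 with LPS+IFNg, 267 to 304 with IL4 and 148 to 184 with TGFb. Slc7a5 (chromosome 8, 121881146 to 121907686), the carrier of large neutral amino acids LAT1, stood at 764 to 864 untreated. It was 604, 665 and 598 with LPS+IFNg, 589, 579 and 654 with IL4 and 336, 292 and 319 with TGFb. Here TGFb alone stood apart and the other 2 stimuli overlapped (limma F test, adjusted p = 4.68e-10). Dpep2, a membrane dipeptidase, was lowest with LPS+IFNg, at 31.6 to 39.5, against 92.7 to 108 untreated and 66.4 to 79.7 with IL4 or TGFb.

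Akr1b8, an aldo-keto reductase, stood at 869 to 1003 untreated and 417 to 673 stimulated. Ccdc88c, which encodes a scaffold of Wnt signalling, stood at 66.2 to 91 untreated and 33.8 to 62 stimulated. Evi2b, a gene that lies within an intron of another gene, so that reads cannot be assigned with certainty, stood at 180.1 to 245 untreated and 109.7 to 169 stimulated. Mbnl3, a splicing regulator, stood at 51.9 to 73.4 untreated and 34.1 to 47.5 stimulated, and Syde2, which regulates small GTPases, at 117 to 137 and 72 to 113. For Mbnl3 and Syde2 a difference among the stimuli was not detected (adjusted p = 0.721 and 0.409, limma F test).

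**Figure D2:**
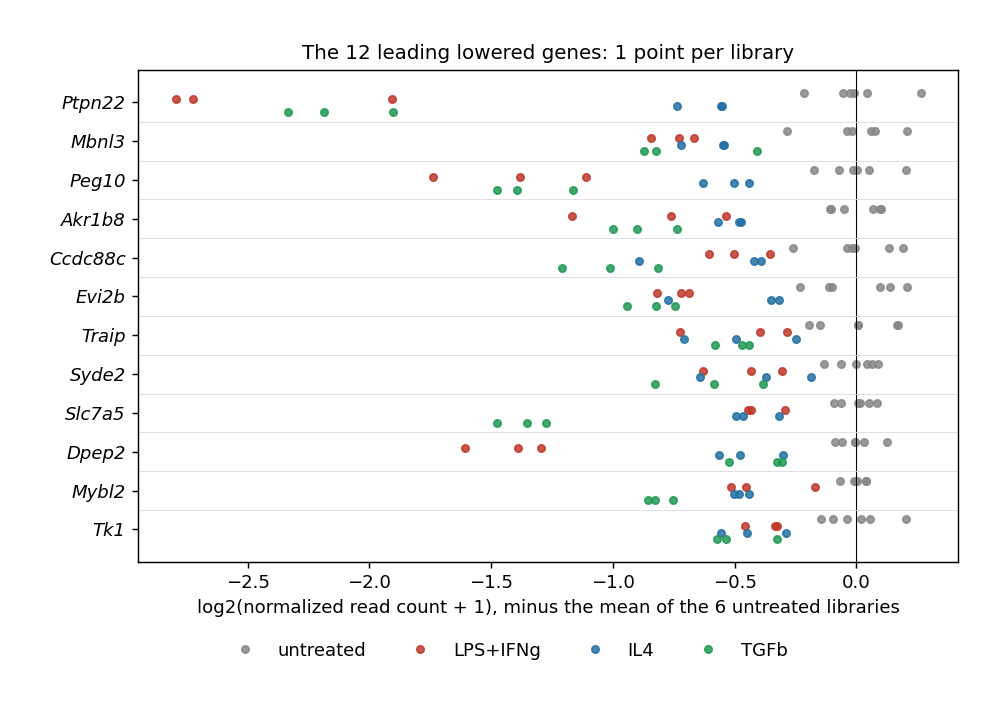
Points are the 15 libraries for the 12 lowered genes with the largest weakest difference and a mean of at least 50, on the same scale as the plot of raised genes. Every stimulated point lies to the left of every untreated point of its gene; the TGFb points of Slc7a5 have a mean of -1.37 and the LPS+IFNg points of Ptpn22 one of -2.48.

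Genes of DNA replication and S phase were the list with the most members lowered by all 3 stimuli, 13 of 37 tested (1.5% of all genes tested met the rule downward). In the mean of the stimuli 31 of the 37 were called lower and 0 higher, where 19.3% of all genes were lower. By stimulus, 27 were lower and 3 higher with LPS+IFNg (29.4% and 29.5% of all genes were). With IL4 16 were lower and 0 higher (7.33% and 9.89%), and with TGFb 28 were lower and 2 higher (23.4% and 24.1%). The median log2 differences were -0.35, -0.18 and -0.36, so the change was small, and smallest with IL4. Without LPS+IFNg replicate 3 the counts were 15 meeting the rule and 33 called lower.

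The members named here cover successive steps of replication: the helicase subunits Mcm3, Mcm5 and Mcm7 with the helicase cofactor Gins1, the leading-strand polymerase Pole, the flap nuclease Fen1 and ligase Lig1, the nucleotide suppliers Rrm1 and Tk1, the chromatin factors Chaf1a and Uhrf1, and Dtl, a substrate receptor of a ubiquitin ligase that acts in S phase. Stretches of 120 bases just before the start site are shown for 4 of them, because the E2F core letters GCGGGAA, in capitals on either strand, recur in this set. They are RefSeq sequences on GRCm38.p6, the assembly called mm10, each written 5′ to 3′ on the strand of the gene.
Rrm1, chr7:102441575-102441694, plus strand: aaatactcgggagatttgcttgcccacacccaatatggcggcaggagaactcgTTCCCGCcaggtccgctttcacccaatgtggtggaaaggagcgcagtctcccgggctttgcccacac
Uhrf1, chr17:56303217-56303336, plus strand: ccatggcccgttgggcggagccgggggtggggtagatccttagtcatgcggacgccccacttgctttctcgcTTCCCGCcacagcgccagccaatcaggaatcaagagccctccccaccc
Chaf1a, chr17:56040296-56040415, plus strand: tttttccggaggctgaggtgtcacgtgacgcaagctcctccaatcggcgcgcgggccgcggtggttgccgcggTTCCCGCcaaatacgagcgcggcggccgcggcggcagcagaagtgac
Dtl, chr1:191575545-191575664, minus strand: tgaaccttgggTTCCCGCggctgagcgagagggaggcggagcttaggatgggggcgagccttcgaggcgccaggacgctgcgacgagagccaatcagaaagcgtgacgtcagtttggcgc
The capitals begin 67, 48, 47 and 109 bases before the start in Rrm1, Uhrf1, Chaf1a and Dtl. Bases just after the start were found in a transcript of a second annotation, GENCODE, for Rrm1, Uhrf1 and Dtl. For Chaf1a they were not, so its start and distance are less certain.

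Over windows of 300 bases (250 before the start and 50 after, 1 window per gene), the E2F core stood in 21.2% of the 132 lowered genes with a window, in 7.58% of the 132 raised genes and in 8.84% of 8968 tested genes. In the replication list it stood in 14 of 31 windows, and in 6 of the 10 windows of members that met the rule. The CCAAT box bound by NF-Y stood in 47.0% of lowered, 37.9% of raised and 39.7% of all tested genes. The cell cycle element CHR, searched as TTTGAA, stood in 18.2%, 6.82% and 11.9%. Median GC content was 60.83%, 61.33% and 61.0% in lowered, raised and all genes. The other 6 motifs searched were the E-box CACGTG, GAS as TTCNNNGAA, NF-kB as GGGAA, any 2 bases and TCC, AP-1 as TGANTCA, CRE as TGACGTCA and PU.1 as GAGGAAGT. Their shares were 0.758% to 12.1% in lowered and raised genes and 1.39% to 10.7% in all tested genes. Motifs were searched on both strands, and matches of different motifs may overlap. These matches are descriptions of letters and not of binding.

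In the raised genes the ISRE, searched as GAAA, any 2 bases and GAAA, stood in 7.58% of windows, against 2.27% in lowered genes and 3.08% in all tested genes. Lgals9 shows a match 55 bases before its start, written here because its 9 stimulated values lie above all untreated ones.
Lgals9, chr11:78984925-78985044, minus strand: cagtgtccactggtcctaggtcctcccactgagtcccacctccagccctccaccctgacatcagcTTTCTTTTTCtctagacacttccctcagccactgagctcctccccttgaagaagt
The capitals are the ISRE letters on the opposite strand.

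In the replication genes that met the rule the values went the same way with each stimulus but not always by the same amount. Mcm5 (chromosome 8, 75109468 to 75128439) stood at 1250.5 to 1409 (median 1324) untreated. It was 682, 775 and 815 with LPS+IFNg, 1079.9, 998 and 1190.0 with IL4 and 1032, 960.4 and 996 with TGFb. LPS+IFNg lay below the other stimuli, whose ranges overlapped (limma F test, adjusted p = 7.38e-06). Uhrf1 followed the same order, with 1269.7 to 1359 untreated, 655 to 662 with LPS+IFNg, 1033 to 1179.7 with IL4 and 919 to 967 with TGFb. Tk1 (chromosome 11, 117815519 to 117826087), thymidine kinase, was even, at 258 to 328 (median 283) untreated, 207, 227 and 226 with LPS+IFNg, 209, 233 and 193 with IL4 and 227, 196 and 191 with TGFb. No difference among the stimuli was detected for Tk1 (limma F test, adjusted p = 0.631) or for Gins1, at 207 to 246 untreated and 161 to 192 stimulated (adjusted p = 0.7).

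Pole stood at 501 to 564 untreated and 327 to 492 stimulated, with TGFb lowest at 327 to 399. Rrm1, the large subunit of ribonucleotide reductase, stood at 1792 to 1988 untreated, 1376 to 1474 with LPS+IFNg, 1477 to 1669 with IL4 and 1336 to 1404 with TGFb. Dtl stood at 420.3 to 498 untreated and at 271 to 419 stimulated, where the highest IL4 library came within 2 of the untreated range. Outside the list, Mybl2, which encodes the cell cycle transcription factor B-Myb, stood at 1235 to 1332 untreated, 905 to 1152 with LPS+IFNg, 913 to 953 with IL4 and 715 to 768 with TGFb. Traip, a ubiquitin ligase of the replication fork, stood at 94.9 to 123 untreated and 65.5 to 91.6 stimulated, with differences of -0.47, -0.48 and -0.50 (SE 0.13 each; limma F test, adjusted p = 0.986).

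**Figure D3:**
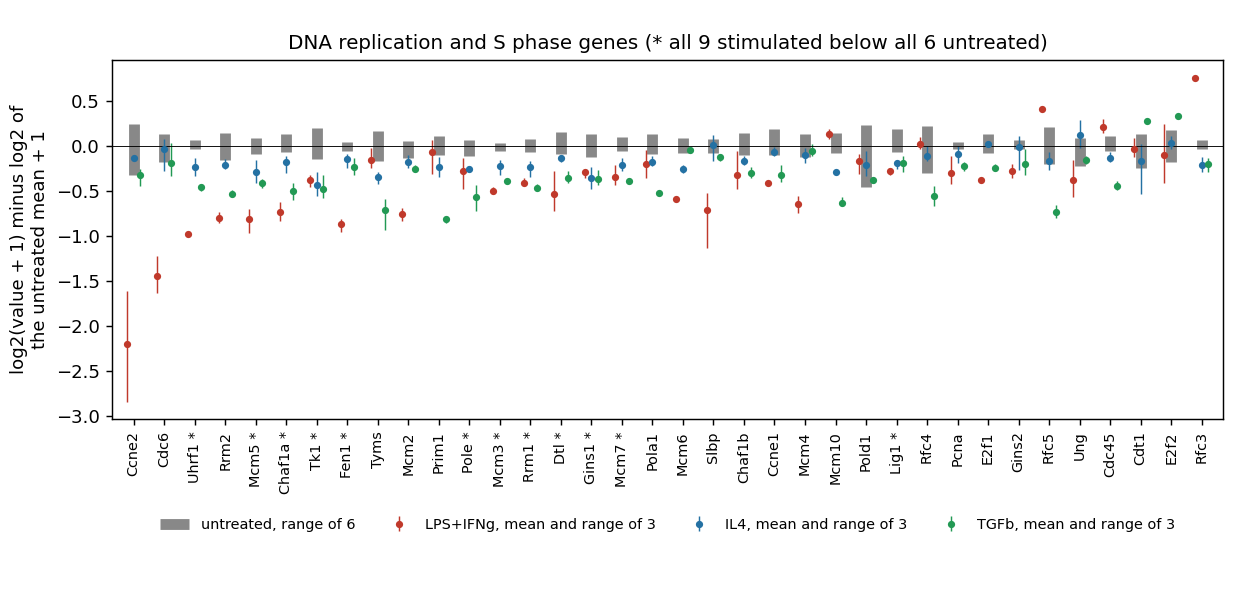
Tested genes of DNA replication and S phase (36 of 37), ordered by their mean difference over the 3 stimuli; points are the means and lines the ranges of 3 libraries, and grey bars the range of the 6 untreated libraries, all as log2(value + 1) minus that of the untreated mean. An asterisk marks the genes (12 of those drawn) whose 9 stimulated values all lie below the grey bar; all 3 LPS+IFNg libraries lie above it for Cdc45, Rfc3 and Rfc5, and all 3 TGFb libraries for Cdt1 and E2f2.

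Of 35 mitosis and spindle genes tested, 2 met the rule downward (1.5% of all genes did), Cdk1 (773 to 849 untreated, 517 to 726 stimulated) and Incenp (1579 to 1671 untreated, 1049.8 to 1430.3 stimulated). In the mean of the stimuli 31 of the 35 were called lower and 0 higher (19.3% and 21.3% of all genes), as many as in the replication list. Without LPS+IFNg replicate 3, 2 met the rule and 32 were called lower. By stimulus, 33 were lower with IL4 (7.33% of all genes were) and 35 with TGFb (23.4%). With LPS+IFNg 16 were higher (29.5%) and 2 lower (29.4%). The median log2 differences were -0.38 with IL4, -0.68 with TGFb and 0.19 with LPS+IFNg. The difference between the 2 lists was not tested.

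Ribosome biogenesis and MYC target genes had 6 of 26 members lowered by all 3 stimuli, where 1.5% of all genes were. In the mean of the stimuli 24 of 26 were called lower and 0 higher, where 19.3% and 21.3% of all genes were. These numbers were again 6 and 24 without LPS+IFNg replicate 3. With each library rescaled to the same total 11 met the rule, where 477 of 11138 genes did so downward in place of 167. With LPS+IFNg 16 were lower and 3 higher (29.4% and 29.5% of all genes), with IL4 5 were lower (7.33%) and with TGFb 25 (23.4%). Polr1b (chromosome 2, 129100970 to 129128060), a core subunit of RNA polymerase I, stood at 1406 to 1594 (median 1523) untreated. It was 1092, 1092 and 767 with LPS+IFNg, 1274, 1265 and 1382 with IL4 and 912, 884 and 898 with TGFb. Nop58, of the particle that methylates ribosomal RNA, stood at 1449 to 1585 untreated, 1055 to 1190.1, 1328 to 1423 and 941 to 967 with LPS+IFNg, IL4 and TGFb. Nolc1, a nucleolar phosphoprotein, stood at 3506 to 3937 untreated and at 2133 to 2709.7, 3335 to 3476 and 2221 to 2384. Utp20, which processes the small subunit's RNA, stood at 1126 to 1369 untreated and 916 to 1097 stimulated. In Polr1b, Nop58 and Nolc1 IL4 lay closest to untreated, with differences of -0.21 (SE 0.08), -0.14 (SE 0.05) and -0.12 (SE 0.07). Mybbp1a, a nucleolar Myb-binding protein, had another order, with 4840.0 to 5121 untreated, 4367 to 4791 with LPS+IFNg, 4219.8 to 4518 with IL4 and 3384 to 3473 with TGFb.

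**Figure D4:**
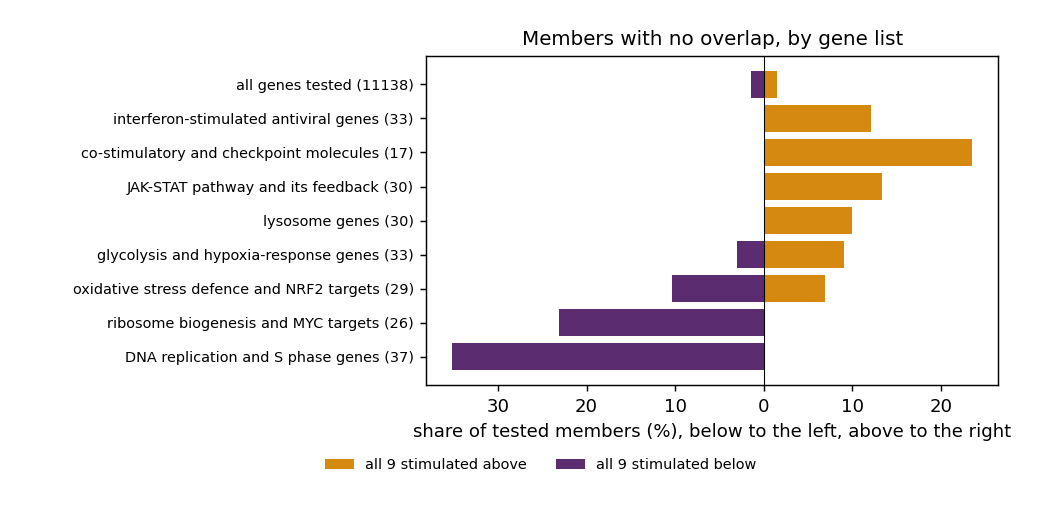
Bars give the share of tested members, in percent, that met the rule upward (right) or downward (left), for the 8 gene lists with at least 3 such genes and for all genes tested; the number tested is in parentheses. Replication genes reach furthest to the left with 13 of 37, and co-stimulatory and checkpoint molecules furthest to the right with 4 of 17.

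Of 46 gene lists 14 had no gene that met the rule, where 2.94% of all genes did. Among them were homeostatic microglia genes (22 tested, 10 called higher and 5 lower in the mean of the stimuli), disease-associated microglia genes (19 tested), alternative activation genes (18), LXR targets (16), cholesterol synthesis (22) and the TCA cycle and respiratory chain (34). At a share of 2.94% a list of this size holds few such genes or none, so nothing is read from their absence. The stimuli went apart in several of these lists. Homeostatic microglia genes were higher in 2 and lower in 11 with LPS+IFNg, 4 and 2 with IL4 and 13 and 2 with TGFb. These counts were 2 and 11, 9 and 1, and 11 and 4 for disease-associated genes. For LXR targets they were 0 and 15, 5 and 0, and 11 and 5. Of all genes 24.1% were higher and 23.4% lower with TGFb, and 21.3% and 19.3% in the mean of the stimuli. The shares for LPS+IFNg and IL4 follow. TCA cycle and respiratory chain genes were higher with IL4 in 26 of 34 and lower in 0, where 9.89% and 7.33% of all genes were. They were lower with LPS+IFNg in 15 and higher in 3 (29.4% and 29.5% of all genes), and lower with TGFb in 23 and higher in 0 (23.4% and 24.1%). Of the 328 genes 73 stood in any list and 255 in none, and of the 11138 genes tested 994 stood in a list. The lists were chosen with earlier results of these data known, so nothing is read from these counts.

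Whether the 3 stimuli moved a gene equally was asked with an F test among the stimulated groups. Its contrast leaves out the untreated libraries, which enter only its estimate of the spread. It called 116 of the 161 raised genes (72.0%) and 127 of the 167 lowered genes (76.0%), close to the 73.3% of all genes tested. These shares do not set the members apart from genes at large. The largest of the 3 differences came from LPS+IFNg in 101 raised genes (62.7%), from TGFb in 48 (29.8%) and from IL4 in 12 (7.45%). Among lowered genes it came from TGFb in 87 (52.1%), LPS+IFNg in 74 (44.3%) and IL4 in 6 (3.59%). Over all genes tested these shares were 52.1% for LPS+IFNg, 36.5% for TGFb and 11.5% for IL4. IL4 gave the smallest difference in 101 of 161 (62.7%) and 121 of 167 (72.5%), where it did so in 54.5% of all genes. The median differences of the raised genes were 0.60, 0.31 and 0.46 for LPS+IFNg, IL4 and TGFb, and those of the lowered genes -0.39, -0.21 and -0.43. Taken singly, limma called 58.9% of all genes with LPS+IFNg, 17.2% with IL4 and 47.5% with TGFb. Since the 3 comparisons share the untreated libraries and the rule used them, nothing is read from the 157, 114 and 150 raised and 163, 93 and 155 lowered genes that they called.

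The most even of the clearly raised genes were Dusp1, Ric1, Tnfaip8 and Cd200r4. Ric1, which acts in transport to the Golgi, stood at 650.1 to 751 untreated and at 1040.2 to 1611, 1187 to 1267 and 997 to 1129.9 with LPS+IFNg, IL4 and TGFb (limma F test, adjusted p = 0.219). Tnfaip8, a TNF-induced regulator of cell death, stood at 399 to 453 untreated, 591 to 684 with LPS+IFNg, 674 to 709 with IL4 and 595 to 605 with TGFb, an order in which IL4 and LPS+IFNg overlapped (adjusted p = 0.0307, limma F test). The most uneven were Ifi204, Parp14, Cd274, Cd40 and Irf9, in each of which LPS+IFNg was far above the other stimuli.

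**Figure D5:**
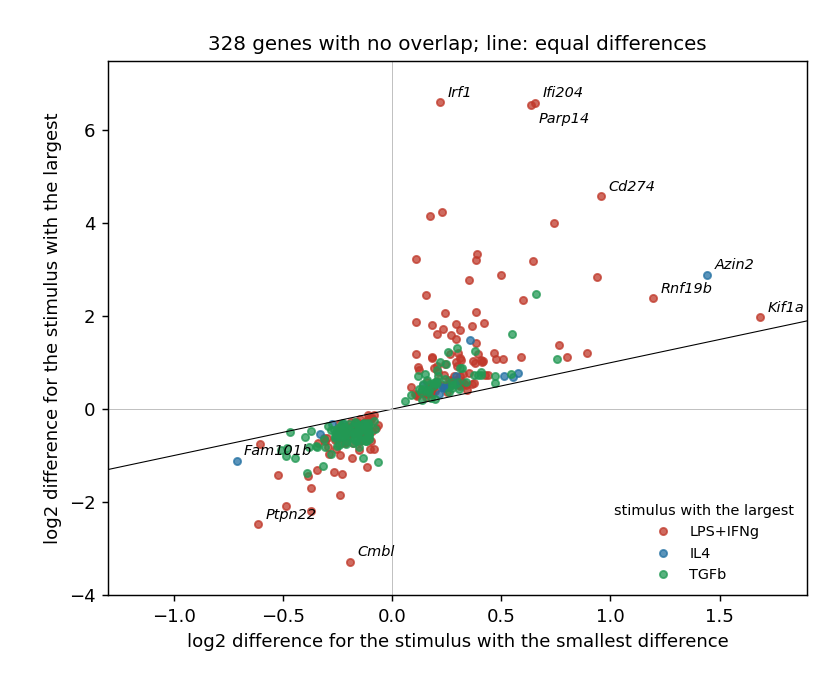
Each point is 1 of the 328 genes; the horizontal axis is the log2 difference for the stimulus with the smallest difference and the vertical axis that for the stimulus with the largest, coloured by the latter, with a line where they are equal. Of the lowered genes 140 lie within 0.3 of 0 on the horizontal axis, and Irf1, Ifi204 and Parp14 stand above 6 on the vertical axis with LPS+IFNg.

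The edge of the rule was narrow. Just inside it stood Clta, the clathrin light chain gene, whose highest untreated value was 1776 and lowest stimulated value 1778, and Mthfd1, an enzyme of folate metabolism, whose lowest untreated and highest stimulated values both round to 764. Just outside stood Lpl, lipoprotein lipase, with an untreated minimum of 4592 and an IL4 value of 4594, and Gbp4, a guanylate-binding protein of a family with close copies, which was 134, 121 and 791 with LPS+IFNg and lay at the floor of 1 in all other libraries. Gbp4 stands at the edge only through ties at the floor, and it was raised with LPS+IFNg alone. Below the mean of 50, where few reads stand behind a value, 3 genes are given that were picked after their values were seen. The neuronal kinesin gene Kif1a stood at 4.32 to 8.63 untreated and 16.3 to 68.9 stimulated, Azin2, an antizyme inhibitor, at 2.8 to 9.77 and 13.9 to 70.6, and Fam101b at 22.7 to 28 and 9.16 to 18.1.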

How the data were processed

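RNA sequencing was done on 15 libraries, made from TRIZOL-extracted total RNA with an Illumina TruSeq kit per the labels' protocols. Per the submitters' processing notes, TopHat2 2.0.3, Partek 6.6, R 3.0.2, DESeq2 and the build mm10 were used. The counting rule, annotation and use of strand are not given in the sources used here. Genes that overlap or have near-identical copies are therefore uncertain. The deposited signal is the authors' normalized read count per gene. Its values were whole multiples of 1 step per library (100% of values between 1 and 1000, within 0.01 reads), and values under 1 are set to 1; both were inferred from the values. No column was left out of the 15 (0 unused).

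Of 11201 genes, the 11138 that reached 10 in 3 or more libraries were tested. The values were taken to log2(value + 1) and fitted once, as 4 groups over 15 libraries, in limma 3.58.1 (R 4.3.3) with its trended empirical Bayes step. A call is an adjusted p below 0.05 after Benjamini and Hochberg. The log scale understates the change of low genes. The fit was tested on simulated data. Replicate numbers follow accession order and only name libraries. The members and the gene lists were chosen with earlier results of these data known, and motifs likewise.

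Named were the 12 raised and 12 lowered genes with the largest weakest difference and a mean of at least 50 (predicted genes, RIKEN clones, ribosomal protein and microRNA genes left out), up to 4 members of each list with at least 3 members meeting the rule, the 5 most and 5 least even genes with a weakest difference of at least 0.5, and the genes at the edge. Other genes are named where they belong to a list or family described. Positions and promoters are RefSeq on GRCm38.p6, matched by symbol for 11098 of the tested genes, 570 of them by an older symbol, and for 327 of the 328 genes; 264 of these had a promoter window. Of the 328, 324 are annotated protein coding. A few genes that stand in the counts are not reported here by name.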

Additional observations from a re-analysis of the deposited data

Results flagged for a closer look

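Among the groups of 6 untreated libraries checked for a library far from the others, over 57 named genes and the depth, 2 values stood apart, and chance alone flags about 1 in 20 groups. For Cd200r4 the lowest untreated library, replicate 1, had 115.1 normalized read counts where the other 5 had 154.7 to 165.3. The recovered reads of untreated replicate 6 summed to 18676200 (rounded), where the other untreated libraries had 2682560 to 6822450.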

How the results depend on the processing

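No paired analysis was possible because the labels give untreated and stimulated libraries different numbers and the replicate numbers follow accession order. The planned count tests were not run, because a separate check of the unit accepted whole reads for only part of the 15 libraries. The 40 to 143 values per library that lie at the floor of 1 hold no recoverable reads. Values between 1 and 1000 were whole multiples of a step in all 15 libraries. Of 1424 alternative values for the named genes 1423 kept direction and side of the threshold, and Aldoa turned to -0.023 under quantile normalization (adjusted p = 0.603, limma). With each library rescaled to the same total the mean of the stimuli gave 1534 genes higher and 3454 lower, IL4 1449 lower, the rule 80 higher and 477 lower, and the rule 2 JAK-STAT genes and 11 of ribosome biogenesis. Quantile normalization gave 316 lowered genes. Without the 3 libraries with the fewest reads (untreated replicates 1 and 4, TGFb replicate 2) 260 and 270 genes met the rule, which fewer libraries make easier, and a gap of at least 0.1 left 59 and 37. Without IL4 replicate 2 IL4 gave 710 higher and 429 lower. Leaving out each library gave 2168 to 2502 higher and 1910 to 2313 lower for the mean of the stimuli, 3048 to 3314 and 3082 to 3291 for LPS+IFNg, 710 to 1516 and 429 to 1200 for IL4, 2251 to 3015 and 2222 to 2900 for TGFb, 7768 to 8339 for the test among stimuli, and 164 to 206 and 171 to 239 for the rule. The cause of each change was not tested, apart from the number of libraries. For the gene lists, leaving out LPS+IFNg replicate 3 or the 3 libraries with the fewest reads was chosen after seeing the data.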

Other observations

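Families written down after the 328 genes had been seen, and so described by counts only, held further lowered genes. Beside all counts here, 1.45% of all genes met the rule upward and 1.5% downward, and 21.3% were called higher and 19.3% lower in the mean of the stimuli. Of 28 nucleoporin genes 5 met the rule downward (Nup85, Nup107, Nup153, Nup155 and Nup210), and 19 were called lower and 1 higher in the mean of the stimuli. Nup107, of the pore's outer ring, stood at 528 to 633 untreated and 363 to 502 stimulated, and Nup210, a membrane ring protein, at 739.7 to 841 and 596 to 719. Of 10 SR splicing factor genes 3 met the rule (Srsf1, Srsf3 and Srsf7) and 7 were called lower, and of 21 hnRNP genes 6 met it and 9 were called lower. Srsf3 stood at 1276 to 1432 untreated, 651 to 909.6 with LPS+IFNg, 1111 to 1179 with IL4 and 931 to 1052 with TGFb. Of 13 genes of purine synthesis 4 met the rule (Adsl, Atic, Gart and Pfas) and 12 were called lower, with Gart at 1477 to 1631 untreated, 1176 to 1326, 1333 to 1416 and 879 to 997. Cad, which starts pyrimidine synthesis, stood at 1926 to 2090.3 untreated and 1106 to 1687 stimulated.

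In the other direction, 7 of 33 further lysosomal genes met the rule (among them Asah1, Clcn7, Glmp, Neu1, Pld3 and Scpep1), and 27 were called higher and 2 lower. Glmp stood at 4956 to 5413 untreated, 5745 to 6230.1 with LPS+IFNg, 6128 to 6351 with IL4 and 7602 to 7954 with TGFb. In the PARP family of 12, Parp9, Parp10 and Parp14 met the rule upward and Parp1, the main DNA break sensor, downward, at 2284 to 2493 untreated and 1389.8 to 2191 stimulated. Nampt, the entry enzyme of NAD salvage, stood at 2018 to 2284 untreated, 6674 to 9721 with LPS+IFNg, 2831 to 2913 with IL4 and 2837 to 3024 with TGFb. Whether these families differ from genes at large was not tested.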
